A study of Arabidopsis thaliana with 9 samples.

Results

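RNA polymerase I and the nucleolar processing of ribosomal RNA were followed through 4 genes in Arabidopsis thaliana seedlings. NRPA1 and NRPA2 encode the largest and the second-largest subunit of RNA polymerase I, and YAO and IMP4 encode nucleolar proteins of the early processing of the ribosomal RNA precursor. The 4 genes were selected on their values in the comparison of cold and 22 °C Col-0 seedlings, so their values in that comparison are a description and carry no test. The same holds for the lack of overlap between their cold and 22 °C arrays. The share of all probe sets without such overlap is not given here. They are 4 of 13356 genes with an ATH1 probe set of their own, among 22746 probe sets tested.

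Total RNA of whole seedlings, roots included, was hybridised to ATH1 arrays, 1 sample per array, and the title names a comparison of cold-responsive signatures between 2 accessions (natural lines) as the aim. All plants were wild type, grew for 10 days in constant light of 60 to 80 microE on sucrose-free Gamborg's medium at 22 °C, and were harvested 24 h after transfer. Col-0 seedlings were moved to another chamber at 22 °C (2 arrays) or to 4 °C (5 arrays), and WS seedlings, listed as WS2 in one field, were moved to 4 °C (2 arrays). The titles assign 2 of the cold Col-0 arrays to a set 4, and those of WS add q6ws and q8ws, and neither term is explained. WS at 22 °C was not analysed here, so temperature was compared within Col-0 alone. Whether replicate arrays stem from separate cultures is not stated, and p-values therefore cover the spread between these samples, which may be technical.

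RNA polymerase I transcribes the long precursor of the 18S, 5.8S and 25S ribosomal RNAs in the nucleolus, and RNA polymerase III makes the 5S RNA. The small subunit processome, a large particle built around the U3 small nucleolar RNA, assembles on the precursor, folds it and directs its early cuts. YAO, a WD-repeat protein, and IMP4 both act with U3. Box C/D and H/ACA particles (snoRNPs) modify the precursor, assembly factors build the large subunit on it, and the exosome trims RNA ends and degrades cut spacers.

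Array medians lay between 5.81 and 5.88 on the log2 scale, except 6.06 in cold Col-0 replicate 3. Across probe sets, themselves no replicates, correlations were 0.979 to 0.993 among cold Col-0 arrays, 0.965 to 0.981 between cold Col-0 and WS, and 0.935 to 0.952 between cold and 22 °C Col-0. Both measured green-tissue markers of 5 listed, LHCB4.2 of the antenna and CHLM of chlorophyll synthesis, were called lower in cold Col-0, and their summed signal was 5640 to 9990 at 22 °C, 1790 to 2840 in cold Col-0 and 1200 to 1590 in cold WS. Of 5 root markers 3 were measured, with summed signals of 3970 to 5360, 2570 to 4110 and 2960 to 4690 in the same order, and NAI2 alone of them was called lower in cold Col-0. Of 5 markers of dividing cells, AUR1 and AUR2 were measured, with sums of 162 to 228, 143 to 230 and 157 to 229, and the 2 seed markers were not measured. Measured here means that the annotation gives the gene a probe set of its own. The part of tissue composition in the results below was not tested, and in whole seedlings fewer cells of a type and less RNA per cell cannot be told apart.

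NRPA1 was higher at 4 °C than at 22 °C on every array. Its log2 signals at 22 °C were 6.70 and 5.95. In cold Col-0 they were 8.47, 8.77 and 8.87 in replicates 1 to 3, and 8.28 and 7.37 in set 4. In cold WS they were 8.11 and 7.97. The lowest cold Col-0 array, set 4 replicate 2, still lay 0.66 above the higher 22 °C array. The group means were 6.33 ± 0.53 (SD, n = 2) at 22 °C and 8.35 ± 0.60 (n = 5) in cold Col-0, a log2 difference of 2.03 or 4.07-fold. NRPA1 had the widest spread of the 4 genes at both temperatures in Col-0, and leaving out 1 array at a time gave 3.14-fold to 5.28-fold, the ends being set by the 22 °C replicates.

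NRPA2, which forms the catalytic centre with NRPA1, stood higher in the cold too. Its signals were 7.27 and 7.11 at 22 °C. They were 8.91, 9.02 and 9.25 in cold Col-0 replicates 1 to 3, 8.76 and 8.21 in set 4, and 8.49 and 8.68 in WS. The cold and 22 °C arrays did not overlap, and set 4 replicate 2 was again the lowest cold Col-0 array, 0.94 above the nearer 22 °C array. Means were 7.19 ± 0.11 (SD, n = 2) and 8.83 ± 0.39 (n = 5), a difference of 1.64 in log2 or 3.11-fold.

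YAO had the largest cold difference of the 4 genes. Its signals were 6.29 and 6.21 at 22 °C. They were 8.95, 9.21 and 9.16 in cold Col-0 replicates 1 to 3, 8.72 and 8.28 in set 4, and 8.62 and 8.88 in WS. A gap of 1.99 separated the highest 22 °C array from the lowest cold Col-0 array. Means were 6.25 ± 0.05 (SD, n = 2) and 8.87 ± 0.38 (n = 5), a difference of 2.62 in log2 or 6.13-fold.

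IMP4 was the most even of the 4 genes in the cold. Its signals were 6.78 and 7.24 at 22 °C. They were 8.76, 8.65 and 8.71 in cold Col-0 replicates 1 to 3, 8.72 and 8.77 in set 4, and 8.95 and 8.74 in WS. The 5 cold Col-0 arrays spanned less than the pair of 22 °C arrays, and the groups were 1.41 apart at their nearest. Means were 7.01 ± 0.32 (SD, n = 2) and 8.72 ± 0.05 (n = 5), a difference of 1.72 in log2 or 3.29-fold.

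**Figure D1:**
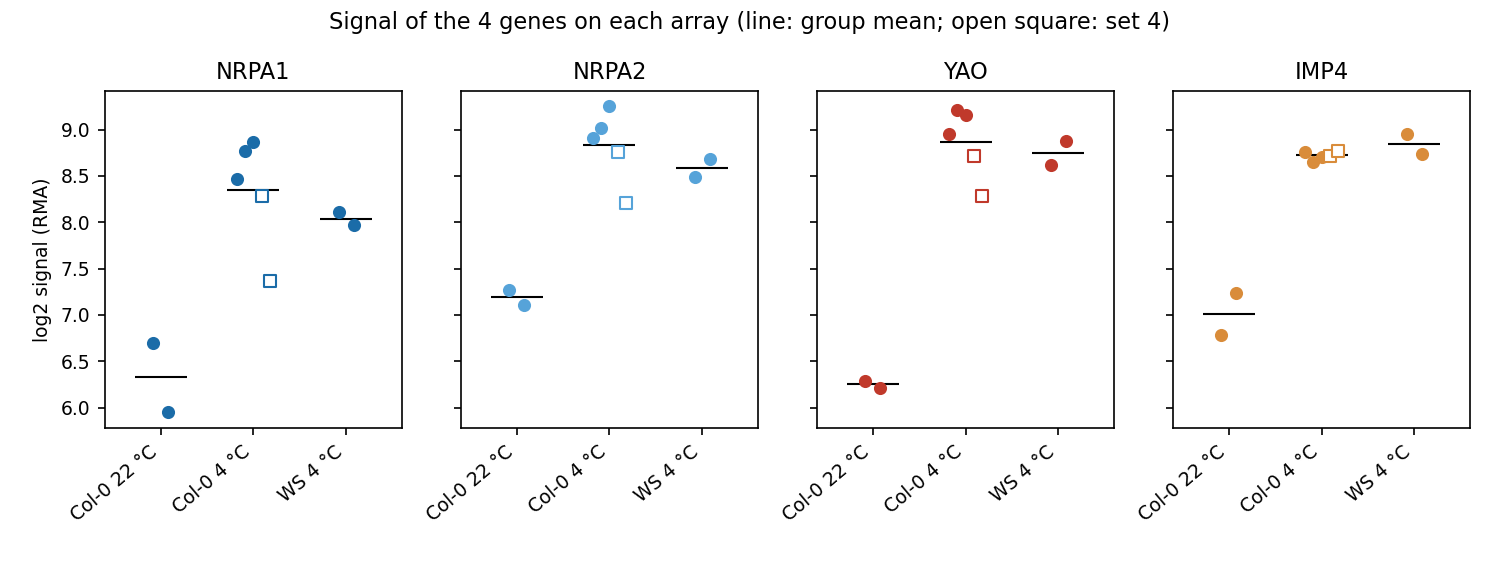
Log2 signal of NRPA1, NRPA2, YAO and IMP4 on each of the 9 arrays, 1 panel per gene, with 1 point per array, open squares for the set 4 arrays and a line at each group mean. Every cold array lies above both 22 °C arrays, in genes that were chosen on this difference in Col-0. Set 4 lies lowest among cold Col-0 arrays for NRPA1, NRPA2 and YAO but not for IMP4.

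WS at 4 °C against Col-0 at 22 °C changes accession and temperature together and uses the same 22 °C arrays, so its values are given side by side without a test. NRPA1 was higher in cold WS by 1.71 in log2 (3.27-fold), NRPA2 by 1.39 (2.63-fold), YAO by 2.50 (5.66-fold) and IMP4 by 1.84 (3.58-fold). The gaps between groups ran from 1.22 for NRPA2 to 2.33 for YAO.

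The order of the 4 differences was partly shared by the cold arrays. Set against the mean of the 22 °C arrays, YAO differed most on 7 of 7 cold arrays, with log2 differences of 2.03 to 2.96. NRPA2 differed least on 5 of 7, with 1.01 to 2.06. NRPA1, at 1.04 to 2.55, and IMP4, at 1.64 to 1.95, took places that varied from array to array, and their ranges overlapped. IMP4 differed least on the other 2 arrays, cold Col-0 replicates 2 and 3. These are differences of each gene from its own 22 °C level, and signals of different probe sets were not compared. All 7 arrays were set against the same 22 °C mean, so they are not separate readings of the order. Without 22 °C replicate 1, the cold Col-0 difference was 1.49 for IMP4 and 1.71 for NRPA2, with IMP4 then the smaller. That of YAO was 2.65.

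**Figure D2:**
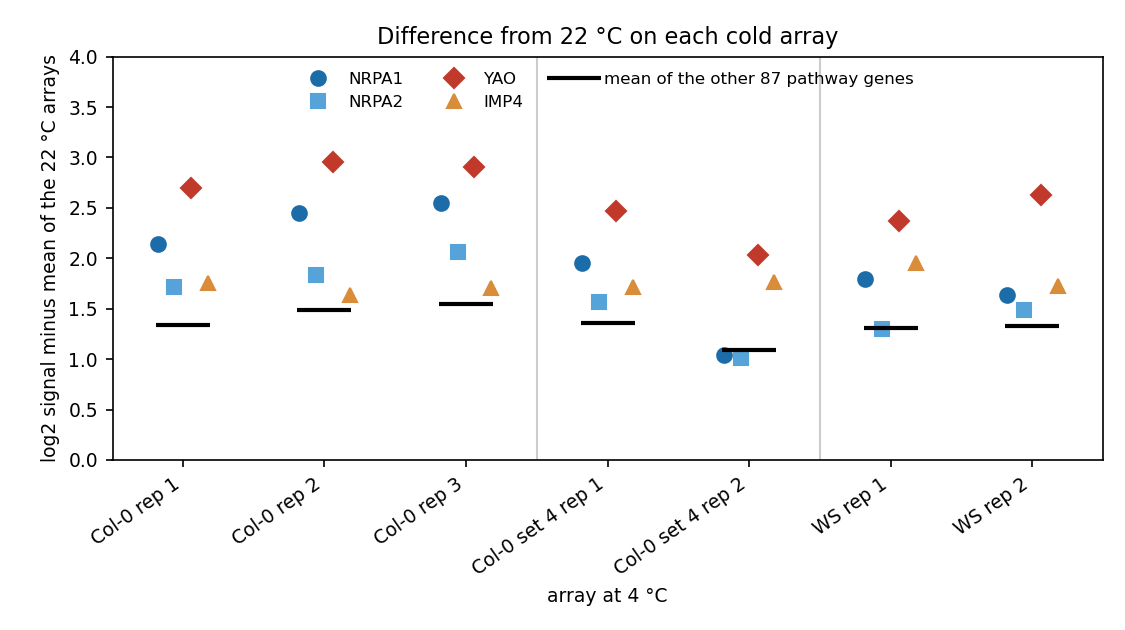
Log2 signal of each gene on each of the 7 arrays at 4 °C minus the gene's mean at 22 °C, with a bar for the mean of the other 87 measured pathway genes. YAO is highest on all 7 arrays, IMP4 stays between 1.64 and 1.95, and NRPA1, NRPA2 and YAO are lowest on set 4 replicate 2 of Col-0.

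Within the cold group, NRPA1, NRPA2 and YAO were lower in set 4 than in the other cold Col-0 arrays, while IMP4 was level. Both set 4 arrays lay below all 3 others for NRPA1, at 7.83 ± 0.65 (SD, n = 2) against 8.71 ± 0.21 (n = 3). The same held for NRPA2, at 8.48 ± 0.39 against 9.06 ± 0.17, and for YAO, at 8.50 ± 0.31 against 9.11 ± 0.14. In the limma fit with set 4 as a group of its own, which tested all probe sets, the log2 differences were -0.88 (SE 0.30, adjusted p = 0.397) for NRPA1, -0.58 (SE 0.18, adjusted p = 0.39) for NRPA2 and -0.60 (SE 0.16, adjusted p = 0.366) for YAO. None was called. Without set 4 replicate 2 they were -0.42, -0.30 and -0.38, and without set 4 replicate 1 they were -1.34, -0.85 and -0.83, with the lone set 4 array assumed to vary like the other groups. IMP4 had 8.75 ± 0.03 in set 4 and 8.71 ± 0.06 in the others, overlapping, with a difference of 0.04 (SE 0.15, adjusted p = 0.957). The fit called 1 of 22746 probe sets, 0.0044%, and 2401 had an unadjusted p under 0.05.

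Deviations from the group mean moved together for 3 of the genes over the 7 cold arrays. The correlation was 0.96 for NRPA1 with NRPA2, 0.93 for NRPA1 with YAO and 0.96 for NRPA2 with YAO. With the set 4 arrays dropped, over 5 arrays, it was 0.79, 0.73 and 0.85. The deviations were still taken from the cold Col-0 mean that includes set 4, so these values are not free of it. With IMP4 the values were -0.29, -0.45 and -0.58 for NRPA1, NRPA2 and YAO, and -0.06, -0.44 and -0.71 without set 4. The points share their arrays and labelling, and these values describe few arrays.

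Set 4 replicate 2 was also low for many of the other measured pathway genes. It was the lowest of the 5 cold Col-0 arrays for 59 of 87 genes (67.8%), against 28.3% of all probe sets. Set 4 replicate 1 was lowest for 6 of them. The mean log2 signal of the 87 genes was 7.79 on set 4 replicate 2 and 8.04 to 8.25 on the other cold Col-0 arrays, against 6.62 and 6.79 at 22 °C. What set 4 replicate 2 differed in was not tested.

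Between WS and Col-0 seedlings at 4 °C, no difference in the 4 genes exceeded the spread between arrays, set 4 included. This comparison did not choose the genes but shares the cold Col-0 arrays with the one that did. NRPA1 averaged 8.04 ± 0.10 (SD, n = 2) in WS, a log2 difference from Col-0 of -0.31 (95% interval -1.15 to 0.52, limma adjusted p = 0.732). NRPA2 averaged 8.58 ± 0.13 and differed by -0.24 (-0.78 to 0.29, limma adjusted p = 0.657). YAO averaged 8.75 ± 0.18 and differed by -0.11 (-0.64 to 0.41, limma adjusted p = 0.864). IMP4 averaged 8.85 ± 0.15 and differed by 0.12 (-0.18 to 0.42, limma adjusted p = 0.704). For each gene WS overlapped cold Col-0, and the intervals leave room for differences of up to the sizes at their ends. Of the 4 genes, 0 were called in this comparison, against 0.857% of all probe sets called higher and 1.28% called lower in WS. With the set 4 arrays left out the differences of NRPA1, NRPA2 and YAO were -0.67, -0.48 and -0.36. Their limma adjusted p-values were then 0.15, 0.115 and 0.199, and IMP4 differed by 0.14 (0.689). With set 4 as the only cold Col-0 arrays the sign turned for NRPA1, NRPA2 and YAO, to 0.21, 0.10 and 0.25, with limma adjusted p-values of 0.87, 0.897 and 0.662.

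**Figure D3:**
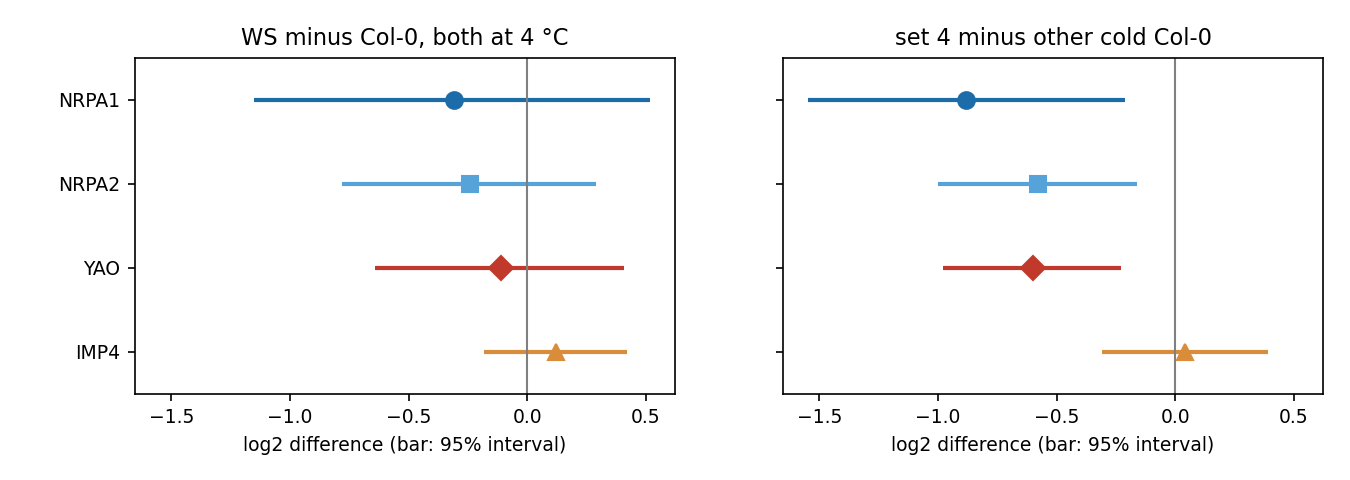
Log2 differences with 95% intervals from limma for NRPA1, NRPA2, YAO and IMP4, on the left WS minus Col-0 at 4 °C and on the right set 4 minus replicates 1 to 3 of cold Col-0. All 4 intervals on the left include 0, while on the right only that of IMP4 does, and none of the differences passed adjustment over all probe sets.

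The wider pathway was described through 9 gene lists with 167 loci, of which 91 were measured, that is, given a probe set of their own by the annotation. The other loci may still be on the array, since 8730 probe sets list no gene. Loci were placed in lists from general knowledge of the pathway, and the reference gene table gives a name for 22 of the 91 and only a locus tag for 69. A gene was called at a limma adjusted p under 0.05 over all probe sets and a log2 difference of at least 1. In cold against 22 °C Col-0, 60 of the 91 genes were called higher (65.9%) and 0 lower, with a median difference of 1.60. Without the 4 genes that were chosen on this comparison it was 56 of 87 (64.4%), with a median of 1.56. Of these, the genes with a name gave 6 of 18 (33.3%), with a median of 0.88. Those with only a locus tag gave 50 of 69 (72.5%), with a median of 1.69, so most of the calls rest on placement from general knowledge. Over all probe sets 5.87% were called higher and 6.09% lower, and the median was 0.03. The lists were drawn up with earlier results of these data known. Leaving out the set 4 arrays gave 65 of 91.

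All but 1 of the measured genes in the polymerase I list were called higher. Of 6 genes 5 were called higher, with a median of 1.78, and without NRPA1 and NRPA2 it was 3 of 4, with a median of 1.61. AT1G75670 rose by 1.94 (3.85-fold, adjusted p = 2.37e-05), AT3G13940 by 1.92 (3.79-fold, adjusted p = 5.37e-05) and AT3G25940 2.47-fold (adjusted p = 0.000751). AT2G34750 differed by 0.91 (1.88-fold), under the minimum, with non-overlapping groups. Its set 4 values, 9.43 and 9.27, were the highest of its cold Col-0 arrays, unlike those of NRPA1 and NRPA2.

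In cold against 22 °C Col-0, the other nuclear polymerases gave few calls among the genes measured. Of 15 listed polymerase III genes 9 were measured and 0 of these were called, with a median of 0.22, and 3 passed the adjusted p alone. NRPC1 and NRPC2 are the polymerase III counterparts of NRPA1 and NRPA2. NRPC2 had 6.23 and 6.08 at 22 °C, 7.12, 7.16 and 7.57 in cold Col-0 replicates 1 to 3, and 7.24 and 6.30 in set 4. Its difference was 0.93 (1.90-fold, adjusted p = 0.0337), and without set 4 replicate 2 it was 1.12 and called (adjusted p = 0.000868). NRPC1 differed by 0.64 with overlapping groups (adjusted p = 0.15).

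Of 11 listed subunits that polymerases share 4 were measured and 0 of these were called, with a median of 0.41. NRPB12, a small subunit of the nuclear polymerases, was the highest of them at 0.84 (adjusted p = 0.00107). Of 17 listed genes of polymerases II, IV and V 5 were measured, and NRPB1 and NRPB2 were not among them. Of the 5, 1 was called, NRPB7, a stalk subunit of polymerase II, which rose by 1.53 (2.88-fold, adjusted p = 0.000393). NRPB9B, at 0.80, and NRPE7, at 0.64, passed the adjusted p but not the minimum difference. In cold WS against 22 °C Col-0, 3 of the 5 genes of polymerases II, IV and V were called higher, with a median of 1.02. Of the 4 shared subunits 1 was called higher, with a median of 0.7, and of 9 polymerase III genes 0. Over all probe sets 6.82% were called higher there. The difference between the polymerase lists was not itself tested.

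Most of the small subunit processome list, to which YAO and IMP4 belong, was called higher. Of 23 measured genes 19 were called higher, and without YAO and IMP4 it was 17 of 21, with a median of 1.83. The largest difference was that of AT3G10530, at 2.85 (7.20-fold, SE 0.20, adjusted p = 1.54e-05). Its signals were 5.91 and 6.35 at 22 °C, 8.93, 9.20 and 9.26 in cold Col-0 replicates 1 to 3, 8.93 and 8.56 in set 4, and 8.72 and 8.82 in WS, so the temperatures did not overlap. AT4G04940, AT3G06530, AT3G21540, AT1G06720 and AT5G38720 followed with 2.56 to 2.38. YAO, at 2.62, stood second in the list and IMP4, at 1.72, below its median. AT3G09720, listed as RH57, an RNA helicase, rose by 1.79 (3.47-fold, adjusted p = 4.4e-05). PCN, a WD-repeat protein, differed by 0.95 (1.93-fold, adjusted p = 0.00444), just under the minimum, and without set 4 replicate 2 by 1.07, past it.

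Most genes in the lists for later steps were called higher too. In large subunit assembly 19 of 22 genes were called higher, with a median of 1.94, led by AT1G77030 at 2.77 (6.81-fold, adjusted p = 3.05e-05) and AT4G26600 at 2.75 (6.74-fold, adjusted p = 6.9e-05). AT5G14520, the pescadillo gene, named for a nucleolar protein of large subunit maturation, rose by 1.77 (3.41-fold, adjusted p = 0.000117). PRH75, a nucleolar DEAD-box RNA helicase, differed by 1.06 (2.09-fold, adjusted p = 0.0117), just over the minimum. Its signals were 9.32 and 9.55 at 22 °C. In cold Col-0 they were 10.51, 10.85 and 10.77 in replicates 1 to 3, and 10.59 and 9.79 in set 4. In the snoRNP and nucleolin list 8 of 16 loci were measured, and 7 of the 8 were called higher, with a median of 1.66. Neither nucleolin gene, NUC-L1 or NUC-L2, was among the measured ones, nor were FIB1, FIB2 and NOP56. AT5G08180, called at 1.08, fell under the minimum of 1 without 22 °C replicate 1 (0.93) and with set 4 as the only cold Col-0 arrays (0.86). It fell just under it without cold Col-0 replicate 3 and with the replicate block. AT4G12600, also called, had a smaller difference than AT5G08180. Its signals were 9.72 and 10.19 at 22 °C and 10.90 to 11.07 in cold Col-0.

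Of 9 exosome and exonuclease genes 6 were called higher, with a median of 1.20. RRP41L, a relative of the exosome core subunit RRP41, rose by 1.20 (2.30-fold, adjusted p = 0.000436). Without 22 °C replicate 1 its difference was 0.89, under the minimum. AT1G60080, called at 1.12, fell under the minimum there as well, to 0.94, so these calls depend on 1 array. RRP41 itself differed by 0.98 (adjusted p = 0.00215), under the minimum. Among 5 late maturation genes and regulators 3 were called higher, with a median of 1.51, including AT5G41190, listed as NOB1, named for the nuclease of the last cut of the 18S RNA in yeast, which rose by 1.73 (3.32-fold, adjusted p = 0.000103). RAPTOR1, a subunit of the TOR kinase complex that regulates growth, differed by -0.17 with overlapping groups (adjusted p = 0.529).

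**Figure D4:**
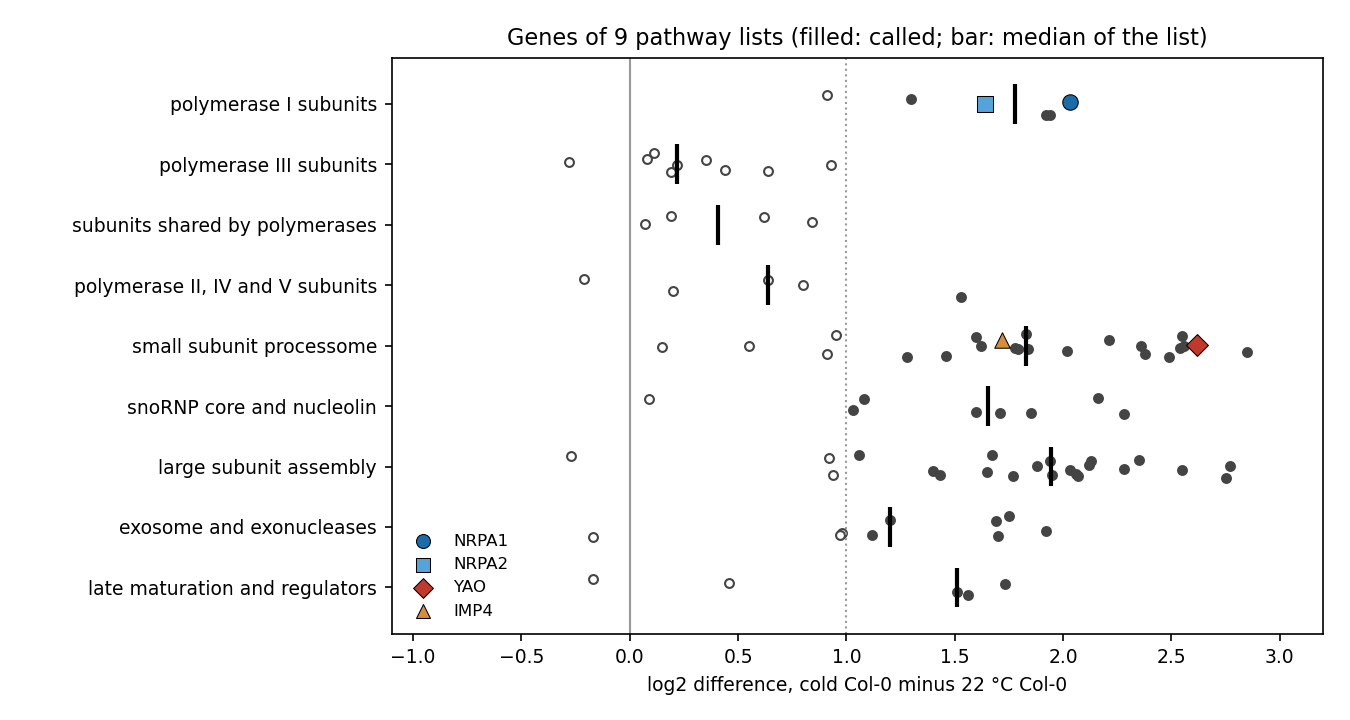
Log2 difference of cold minus 22 °C Col-0 for 91 measured genes in 9 pathway lists, 1 symbol per gene, filled where called, with a bar at each list's median, a solid line at 0 and a dotted line at 1. Polymerase I and the processing lists have medians of 1.20 to 1.94, the polymerase III list has 0.22, and YAO lies near the top of the processome list.

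In cold WS against 22 °C Col-0, which shares the 22 °C arrays, 58 of the 87 genes other than the chosen 4 were called higher (66.7%) and 0 lower, against 6.82% and 7.37% of all probe sets. Between the accessions in the cold, 1 of the 91 was called higher in WS (1.10%) and 0 lower, close to the 0.857% and 1.28% of all probe sets. The count was 2 under 8 of 19 alternatives and 4 with no minimum fold. AT1G26530, of the processome list, had 3.54 and 3.32 at 22 °C, 3.57, 3.65 and 3.62 in cold Col-0 replicates 1 to 3, 3.47 and 3.58 in set 4, and 5.85 and 6.35 in WS. Both WS arrays lay far above all 7 Col-0 arrays, a log2 difference in signal from cold Col-0 of 2.52 (limma adjusted p = 2.1e-05). Its Col-0 signals lay under 3.90, the level below which the dimmest 25% of probe sets fell. No fold is given for it, since no limit of detection was set for signals this low.

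AT5G08600, also of the processome list, lay the other way. Its signals were 3.97 and 3.86 at 22 °C. They were 4.68, 5.37 and 5.46 in cold Col-0 replicates 1 to 3, 4.41 and 4.18 in set 4, and 3.41 and 3.65 in WS. Both WS signals lay under the dim level of 3.90 named above, and no limit of detection was set for them. The groups did not overlap, and the difference of -1.29 missed the threshold (limma adjusted p = 0.0611). It was called lower in 8 alternatives, with limma adjusted p-values of 0.0059 to 0.0476. Among them were both other array scalings, the fit without dim probe sets, and the fit without set 4 replicate 2 (-1.45). AT1G77030 was lower in WS by 0.94, with 6.56 and 6.41 against 7.27 to 7.59 in cold Col-0 (limma adjusted p = 0.0442), under the minimum difference. For genes lower in WS, less transcript and a sequence difference from Col-0 under the probes cannot be told apart here. NRPB9B was higher in WS by 0.80 (limma adjusted p = 0.0206), also under it.

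Genes whose pattern was most like that of each of the 4 were named by Pearson correlation over the 9 arrays among 13355 genes. The 9 arrays fall into 2 temperatures, so the correlation over the 7 cold arrays is given beside it. Among these, set 4 replicate 2 lay furthest from its group mean for NRPA1 (-0.99), NRPA2 (-0.62) and YAO (-0.58). How far the cold correlations rest on that array was not tested. For NRPA1 the first was AT1G11390, with 0.997 over all arrays and 0.990 in the cold, followed by AT4G23540 and AT5G63380. For NRPA2 it was AT5G63380, with 0.995 and 0.977, followed by AT1G05910 and AT4G23540. AT5G63380 and AT4G23540 stood among the first 3 for both polymerase subunits.

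For YAO the first was AT3G21540 of the processome list, with 0.997 and 0.965, followed by AT1G04945 and AT5G11240. For IMP4 it was AT3G23620 of the large subunit list, with 0.995 over all arrays but 0.779 in the cold. The next for IMP4, AT1G16850 and AT2G31725, had 0.994 and 0.993 over all arrays and 0.405 and 0.400 in the cold. Correlations of at least 0.95 over 9 arrays were shared by 93 genes with NRPA1, 196 with NRPA2, 309 with YAO and 270 with IMP4. Among the 4 genes they ran from 0.809 for NRPA1 with IMP4 to 0.981 for NRPA2 with YAO.

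Of the 8 protein-coding genes next to the 4 on the chromosomes, 2 were measured. AT4G05400, beside YAO, differed by 0.33 in cold Col-0 (adjusted p = 0.0746) and AT1G63770, beside IMP4, by -0.26 (adjusted p = 0.377). Neither was called.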

How the data were processed

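The authors deposited log2 signals, 1 per probe set and array, made by RMA with affy per the submitters' processing notes, with versions not given in the sources used here. RMA sets the probe signals of all arrays to 1 distribution before they are summarised per probe set, so values are relative within an array. The summarised values still differed, with a median of 6.06 in cold Col-0 replicate 3 and 5.81 to 5.88 elsewhere. Of 22810 probe sets, 64 controls were left out. A probe set was named where the platform annotation lists 1 gene (13513 probe sets), with symbols from the RefSeq gene table of TAIR10.1; 503 list several genes and 8730 none. Each of the 4 genes had 1 probe set.

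Group means were fitted with limma 3.58.1 (lmFit, eBayes) in R 4.3.3 to all 9 arrays, with 6 residual degrees of freedom (5 where set 4 was its own group). Tests were two-sided, with Benjamini-Hochberg adjustment over 22746 probe sets. The fit was tested on simulated data. Detection calls were not used. Precision is limited by the number of arrays.

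The 4 genes and the lists were chosen with earlier results of these data known. After the annotation was seen, 4 loci, among them AT5G11240, were left out of the lists and 1 was moved between lists. Named genes were the 4, the 3 most like each, and from each list up to 6 called genes with the largest difference and the 2 largest uncalled ones. AT5G14520, AT3G09720, PRH75 and the neighbouring genes were named outside this rule, after their values were seen, because the table gives them a name or they lie beside one of the 4. Genes named by the rule but not described singly are within the counts. Alternatives covered array scaling, dim probe sets, variance model, array weights, set 4, the replicate block, single arrays and the fold minimum. Promoter motifs and protein sequences were not analysed here.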

Additional observations from a re-analysis of the deposited data

Results flagged for a closer look

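In all, 4 pathway genes had 1 cold Col-0 array far from the other 4 by Dixon's criterion, and in each it was the low value of set 4 replicate 2. PCN read 7.64 there against 8.13 to 8.32 on the others, and AT4G04940 of the processome list read 7.87 against 8.60 to 8.76. AT1G50920 of the large subunit list read 9.62 against 10.29 to 10.49, and AT1G54440 of the exosome list read 5.33 against 6.05 to 6.28. These are 4 of 66 genes examined in this way, and chance flags about 1 in 20 groups. NRPA1, NRPA2 and YAO were lowest on the same array without passing the criterion. What sets this array apart was not tested.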

How the results depend on the processing

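The cold differences of NRPA1, NRPA2, YAO and IMP4, on which these genes were chosen, had the same direction under each of the 19 alternatives, which is a description. Dropping dim probe sets, the variance model, leaving out a WS array and dropping the fold minimum cannot change a difference between Col-0 means. With set 4 as the only cold Col-0 arrays they were 1.50, 1.29, 2.25 and 1.74, and with set 4 as its own term the first 3 were 2.38, 1.87 and 2.86. Leaving out single arrays gave 1.65 to 2.40, 1.53 to 1.79, 2.53 to 2.76 and 1.49 to 1.95. Against cold Col-0, the WS difference turned sign with set 4 as the only cold Col-0 arrays for NRPA1 (0.21), NRPA2 (0.10) and YAO (0.25). With the set 4 arrays left out these were -0.67, -0.48 and -0.36. For YAO the sign also turned without WS replicate 1 (0.02), with -0.26 to 0.02 without single arrays. The cause was not tested. Called pathway genes in the cold ran from 55 of 91 without 22 °C replicate 1 to 65, and to 74 with no minimum fold. Over all probe sets the cold count of 2721 became 2514 to 2873 without single arrays and 6478 with no minimum fold. The count for WS against cold Col-0, 486, became 285 (without WS replicate 2) to 549, 231 with set 4 as the only cold arrays and 1083 with no minimum fold. The count for WS against 22 °C, 3227, became 2809 to 3404, and 6228 with no minimum fold; the construction of that alternative drops the fold requirement. The set 4 count, 1, became 2 after quantile normalization again, 2 with trend and robust, 3 with array weights, 0 with the replicate block and 0 to 2 without single arrays. Same-numbered arrays deviated together with correlations of -0.329 to 0.291 in 10 pairs, so numbers were not taken as pairs; the replicate block gave 58 called pathway genes in the cold. Each gene had 1 probe set, so averaging probe sets gave no value. With 2 arrays at 22 °C and 2 of WS, differences smaller than the intervals given could not be resolved.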
